A study of Mus musculus with 36 samples.

Results

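The comparison described here is that of mouse kidneys collected at zeitgeber time (ZT) 8, that is 8 h after lights on, from mice fed a high-fat diet or normal chow. It took 6 of the 36 libraries of the study, the 3 high-fat and the 3 chow libraries labelled ZT8, and all 11144 genes that passed the filter on level. Both groups were male wild-type C57BL/6J mice under 12 h of light and 12 h of darkness, which had free access to their diet from the age of 6 weeks on. Harvest was at 16 weeks according to the labels, which name no transgene, drug or restricted feeding in either group, so that diet is the only labelled difference. ZT3 stands in the diet tag of these samples, whereas their titles and descriptions give ZT8, which was used. The ZT8 chow libraries carry the replicate numbers 1, 4 and 5 and the high-fat libraries 1, 2 and 5, and values below follow that order. The labels do not say whether mice shared a cage or litter, so p-values measure the spread between libraries only. In limma that spread was pooled over the 12 groups of all 36 libraries. With only the 6 ZT8 libraries in the fit, 7 genes were called.

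The kidney filters plasma in the glomerulus and recovers most of the filtrate in the proximal tubule, which also makes glucose from lactate, glutamine and glycerol and degrades or conjugates many small molecules. The loop of Henle, distal tubule and collecting duct then adjust salt, water, calcium and acid. The molecular clock runs in these cells too: the activators CLOCK and BMAL1 (Arntl) drive Per, Cry, Nr1d1 and the output factor Dbp through E-boxes, and the products of these genes feed back on the activators. In a nocturnal animal ZT8 lies in the rest phase, when little food is eaten. Long high-fat feeding is known as a model of obesity that loads the kidney with lipid and alters the timing of meals.

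All 6 libraries had the transcripts of kidney tubules. Slc34a1, the proximal phosphate transporter, stood between 1979 and 2493 FPKM (fragments scaled to transcript length and library size), Umod, the uromodulin of the thick ascending limb, between 803 and 1210, and Aqp2, the water channel of principal cells, between 59.6 and 142. Relative depth, read from the steps between low values, was 0.422 to 1.39 in chow and 0.796 to 1.297 under high fat (two-sided exact permutation test, p = 0.8, where 0.1 is the smallest possible with 3 against 3). Fat tissue transcripts were present in every library: the 18 adipocyte markers summed to 766 to 1558 FPKM in chow and 432 to 1139 under high fat (exact permutation p = 0.2), and none of them was at 0 in all 6 libraries. Of 14 adrenal markers, 13 stayed under 1 FPKM in all 6. In bulk tissue, fewer cells of a type and less RNA per cell cannot be told apart.

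At ZT8 the high-fat kidneys had more Pck1, the rate-limiting enzyme of gluconeogenesis, more of the adipokine chemerin (Rarres2), the glucuronosyltransferase Ugt2b37, the water channel Aqp4 and the oxygen-sensing hydroxylase Egln3. They had less S100g, the calcium buffer calbindin-D9k, less metallothionein Mt1, less of the cytochromes P450 Cyp2a5 and Cyp2d12 and of the glutathione transferase Gsta3. In all, 37 of 11144 genes passed limma's moderated test at an adjusted p under 0.05, which is 0.332% of those tested. Of these, 12 rose (0.108%) and 25 fell (0.224%). Without adjustment 1066 genes (9.57%) had a p under 0.05, 469 higher (4.21%) and 597 lower (5.36%). The 3 libraries of one diet lay wholly above those of the other in 1782 genes (16.0%), higher under high fat in 873 (7.83%) and lower in 909 (8.16%), and this held for all 37. The change was over 1 on the log2(FPKM + 0.5) scale in 14 of them, 7 in each direction. Of all 11144 genes tested, 5900 had a positive change, and the median was 0.01, on values that are scaled to library size. Removing each library's smooth trend over GC content, among the 11085 genes with a GC value, gave 35 higher and 31 lower genes. With it 47.0% of the calls were lower, in place of 67.6%.

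**Figure D1:**
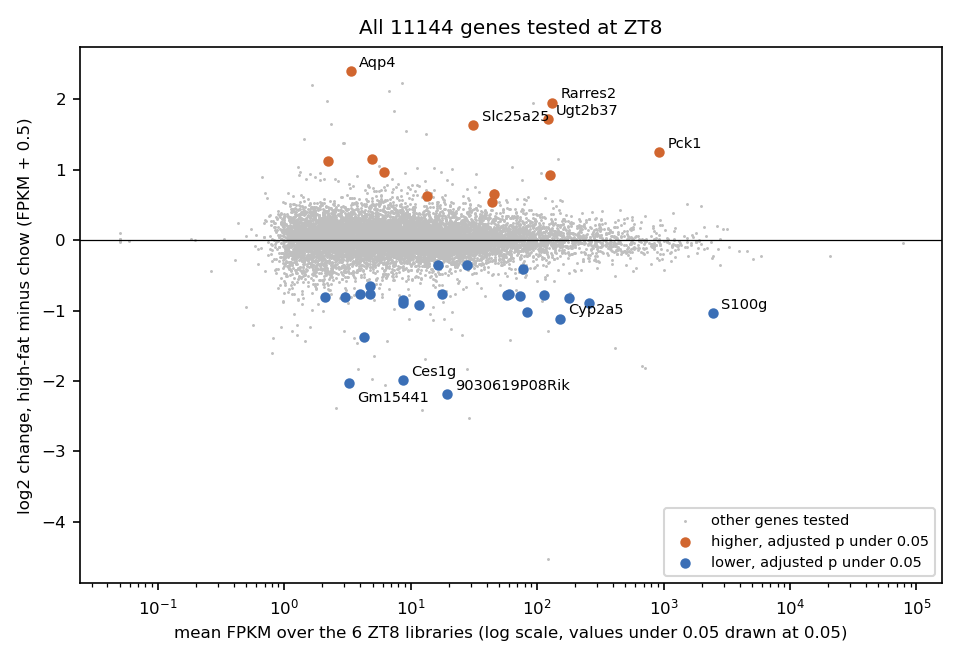
Each point is a gene tested, with its mean FPKM over the 6 ZT8 libraries on the horizontal log axis and its log2 change (high-fat minus chow, after adding 0.5 to FPKM) on the vertical axis. Coloured points are the 12 higher and 25 lower genes that passed the test, and they lie across the range of levels.

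The calls rested on few libraries. Each of the 37 genes kept its sign when any single ZT8 library was left out, but only 9 passed the test in all 6 such fits: 9030619P08Rik, Gm15441, Gsta3, Egln3, Rarres2, Ugt2b37, S100g, Bex4 and Cela1. The 4 genes Zfp579, Slc5a10, Cox6a2 and Wfdc16 passed in none of them, with adjusted p-values of up to 0.255. The number of genes called was between 13, without high-fat replicate 1, and 31, without high-fat replicate 2.

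Pck1 encodes the cytosolic phosphoenolpyruvate carboxykinase, which commits oxaloacetate to glucose synthesis in the proximal tubule and is a classic target of cyclic AMP and glucocorticoid signalling. It had 401, 646 and 616 FPKM in the chow libraries and 1444, 1370 and 1075 FPKM in the high-fat libraries. Every high-fat kidney was above every chow kidney, with chow replicate 1 the lowest. Its mean rose from 554 ± 134 to 1297 ± 195 FPKM (SD, n = 3 each), a 2.34-fold ratio, and the log2 change of 1.25 ± 0.23 (SE) had an adjusted p of 0.00645 in limma. Without chow replicate 1 or without high-fat replicate 1 the call was lost, with an adjusted p of up to 0.068. The gene lies on chromosome 2 at 173153048 to 173159273 (GRCm38, GENCODE). The 250 bases before its RefSeq start (GRCm38.p6, plus strand, chr2:173152823-173153072) reach past this GENCODE start. They are shown because Pck1 had the highest level among the genes that rose. Capitals mark the only match to the cyclic AMP response element, searched on both strands as TGACGTCA or TTACGTCA. The match begins 93 bases before the RefSeq start.
Pck1: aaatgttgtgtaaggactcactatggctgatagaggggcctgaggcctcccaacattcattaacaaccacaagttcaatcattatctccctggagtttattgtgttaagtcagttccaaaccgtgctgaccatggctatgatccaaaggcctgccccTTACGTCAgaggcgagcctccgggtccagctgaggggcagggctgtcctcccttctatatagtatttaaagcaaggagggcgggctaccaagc
This element was present in 1.98% of the 32851 RefSeq promoter windows, and of the 26 called genes with a window, Slc25a25 also held it. The element was chosen after the calls had been seen, and a match describes letters only.

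Other genes of glucose handling were higher by less. Of 29 measured genes of gluconeogenesis, glycolysis and glucose transport, Pck1 was the only one to pass the test, and 20 had a positive change, with a median of 0.15 against 0.01 over all genes. Unadjusted p was under 0.05 for 9 higher genes and 1 lower gene of the list, where 4.21% and 5.36% of all genes had such values. The median was 0.08 without chow replicate 1 and without high-fat replicate 1. Pyruvate carboxylase (Pcx), which makes the oxaloacetate that Pck1 uses, had 190, 187 and 212 FPKM in chow and 224, 267 and 222 FPKM under high fat (log2 change 0.27, adjusted p = 0.27 in limma). Fbp1, the fructose bisphosphatase of the same route, had 876, 890 and 842 against 965, 1101 and 977 FPKM (0.22, adjusted p = 0.324). For both genes the groups did not overlap. Fbp2, the muscle-type fructose bisphosphatase, stood the other way, at 11.7, 11.4 and 12.5 FPKM in chow and 7.32, 8.26 and 6.10 under high fat (-0.69, adjusted p = 0.101). The pyruvate kinase Pklr, a glycolytic enzyme, stood at 9.90, 11.0 and 12.6 against 19.8, 17.2 and 14.1 FPKM (0.58, adjusted p = 0.0961). Slc5a10, a kidney cotransporter of sodium with mannose and fructose outside that list, rose from 81.4, 90.7 and 90.7 to 178, 169 and 153 FPKM (log2 change 0.92 ± 0.20 SE, adjusted p = 0.0338). Its groups were well apart, yet the call was lost without any of the 6 libraries (adjusted p up to 0.23).

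The citric acid cycle oxidises acetyl groups in mitochondria and supplies oxaloacetate to Pck1. The list of 24 measured genes also holds cytosolic enzymes, among them Aco1 and Mdh1. None of the 24 passed the test, but 23 had a positive change, with a median of 0.12 (mean of the other 5 times, 0.03). At an unadjusted p under 0.05, 7 were higher, Aco1 and Mdh1 included, where 4.21% of all genes were. The 7 became 2 without chow replicate 5 or high-fat replicate 2, and 3 without high-fat replicate 1. In 14 of the 24 the groups did not overlap, where 16.0% of all genes did not. Idh3a, a subunit of the NAD-dependent isocitrate dehydrogenase, had 42.1, 40.6 and 38.9 FPKM in chow and 56.8, 44.7 and 53.7 under high fat (0.34, adjusted p = 0.401). The cytosolic aconitase Aco1 had 72.6, 74.6 and 75.2 against 95.9, 91.1 and 79.3 FPKM (0.25, adjusted p = 0.234). All 8 ketone body genes had a positive change as well, with a median of 0.16 and none at an unadjusted p under 0.05. Of 49 oxidative phosphorylation genes 20 were positive, with a median of -0.02 and 1 gene at an unadjusted p under 0.05. This count was 11 without chow replicate 1 and 34 without high-fat replicate 1, where the median was 0.04. With the GC trend removed, 18 of the 24 citric acid cycle genes were positive and their median was 0.10.

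Fatty acid oxidation genes and targets of the lipid sensor PPARA gave no call among 45 measured. Of these, 31 had a positive change (5900 of 11144 over all genes) with a median of 0.08. At an unadjusted p under 0.05, 7 were higher, where 4.21% of all genes were. Without chow replicate 1, 2 were higher and 4 lower, and the median was 0.04. Ppara itself had 11.4, 11.5 and 9.63 FPKM in chow and 15.0, 15.8 and 11.8 under high fat (0.37, adjusted p = 0.521). The acyl-CoA dehydrogenase Acadl had 141, 143 and 137 against 158, 168 and 165 FPKM (0.22, adjusted p = 0.311). Pdk4, the kinase that shuts pyruvate out of the citric acid cycle in fasting, had 1.18, 2.16 and 1.77 against 3.11, 2.09 and 5.74 FPKM (0.84, adjusted p = 0.345), and its groups overlapped.

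Slc25a25, a calcium-regulated carrier that exchanges ATP-magnesium for phosphate across the inner mitochondrial membrane, rose from 10.1, 12.9 and 23.96 FPKM to 39.5, 55.3 and 46.6 FPKM. The ratio of means was 3.01 and the log2 change 1.64 ± 0.35 (SE, adjusted p = 0.0238). Chow replicate 5 was the highest of the chow kidneys and still below all high-fat kidneys. The call needed all libraries but chow replicate 5, with an adjusted p of up to 0.166 when another was left out. Cox6a2, a cytochrome oxidase subunit typical of heart and skeletal muscle, rose from 1.15, 1.33 and 1.17 to 3.13, 3.43 and 3.15 FPKM (1.13, adjusted p = 0.0426), a call lost without any of the 6 (adjusted p up to 0.191). Of 10 skeletal muscle markers, 8 stayed under 1 FPKM in all 6 libraries. The marker list summed to 33.9 to 43.9 FPKM in chow and 52.1 to 62.6 under high fat. Most of each sum was Pvalb, which is also a distal tubule gene, at 32.4 to 41.3 FPKM in chow and 49.97 to 60.3 under high fat. The part of muscle RNA in the Cox6a2 result was not tested. Etnppl, which breaks down phosphoethanolamine, rose from 4.25, 3.17 and 4.63 to 7.86, 9.53 and 7.395 FPKM (0.96, adjusted p = 0.0157; up to 0.135 without chow replicate 4, high-fat replicate 1 or high-fat replicate 2). Suox, the mitochondrial sulfite oxidase, rose from 33.5, 35.7 and 38.0 to 51.3, 55.5 and 50.6 FPKM (0.55, adjusted p = 0.00879; up to 0.0673 without chow replicate 1 or high-fat replicate 2).

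Among secreted and carrier proteins, Rarres2 and Apom went in opposite directions. Rarres2 encodes chemerin, an adipokine and chemoattractant. It had 35.7, 54.3 and 77.0 FPKM in chow and 176, 232 and 218 under high fat, so that the lowest high-fat kidney was above the highest chow kidney. The means were 55.7 ± 20.7 and 209 ± 29.3 FPKM (SD, n = 3 each), a 3.75-fold ratio, with a log2 change of 1.95 ± 0.32 (SE) and an adjusted p of 0.0023. Fat tissue also makes chemerin. The sums of the 18 adipocyte markers overlapped between the diets (766 to 1558 FPKM in chow, 432 to 1139 under high fat). With an adipocyte score as covariate the change was 1.97 (limma adjusted p = 0.00279). The score averages these markers, 5 of them with a positive change at ZT8, and cannot adjust for a change within fat cells. The part of fat tissue RNA in the Rarres2 result was not tested. Rarres2 shares 892 exon bases with Lrrc61 on the opposite strand, which had 8.89, 8.45 and 9.27 against 9.55, 8.96 and 9.23 FPKM (0.06, adjusted p = 0.896). Apom, the apolipoprotein that carries sphingosine 1-phosphate and is made in liver and proximal tubule, fell from 244, 207 and 235 to 116, 157 and 119 FPKM (-0.82 ± 0.15 SE, adjusted p = 0.00879). That call was lost without chow replicate 1 or 5 or high-fat replicate 1 or 5 (adjusted p up to 0.103). The 17 measured retinol and lipid carriers had a median of 0.02, and no other member passed. Ttr, transthyretin, had 153, 79.2 and 55.5 FPKM in chow and 193, 211 and 185 under high fat (1.16, adjusted p = 0.189).

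**Figure D2:**
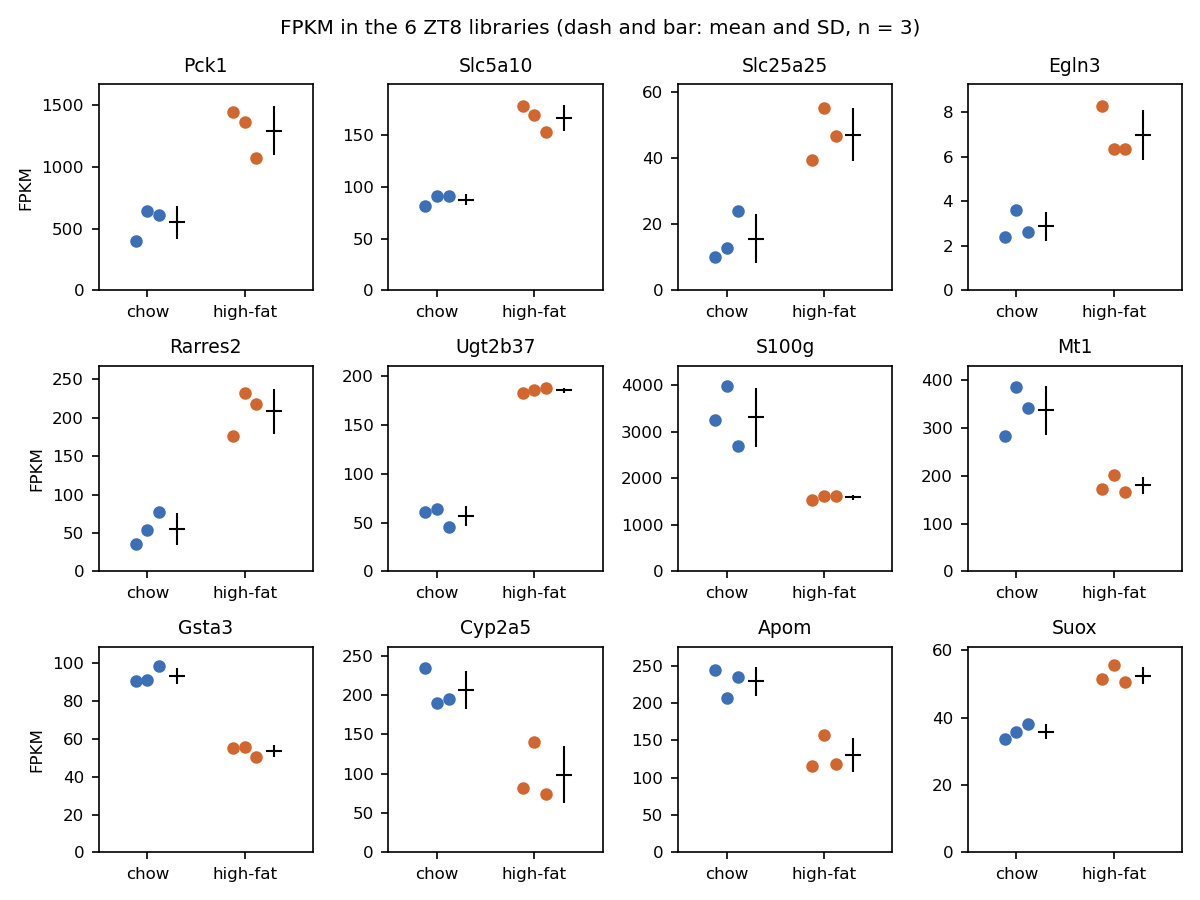
FPKM of 12 genes that passed the test, 1 panel per gene and 1 point per library (chow replicates 1, 4 and 5, then high-fat replicates 1, 2 and 5). A dash and bar give the mean and SD of 3 libraries on an axis from 0. In each panel the groups are apart, and the chow libraries of Slc25a25 (10.1 to 23.96) and the high-fat libraries of Cyp2a5 (73.7 to 140) are the most spread.

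Genes that conjugate or oxidise lipophilic compounds went both ways. Ugt2b37, a proximal tubule enzyme that adds glucuronic acid to steroids and drugs, rose from 60.6, 64.3 and 45.8 to 183, 186 and 188 FPKM (3.27-fold, log2 change 1.71 ± 0.28 SE, adjusted p = 0.0023). The high-fat libraries lay close together, far above the chow libraries. Of 14 measured glucuronosyltransferases and sulfotransferases it was the only one called. Cyp2a5, a hydroxylase of coumarin and nicotine, fell from 234, 190 and 195 to 81.8, 140 and 73.7 FPKM (-1.11 ± 0.25 SE, adjusted p = 0.0383), and was called without high-fat replicate 2 only among the leave-out fits (adjusted p up to 0.294). Cyp2d12 fell from 77.9, 131 and 130 to 52.1, 58.8 and 51.2 FPKM (-1.02, adjusted p = 0.0451), and was called without chow replicate 1 only (up to 0.255). They were the only calls among 22 measured cytochrome P450 genes, of which 11 had a positive change. Gsta3, an alpha class glutathione transferase and a target of the oxidant sensor NRF2, fell from 90.5, 91.1 and 98.5 to 55.0, 55.9 and 50.3 FPKM (-0.79 ± 0.12 SE, adjusted p = 0.00175). The spread within each diet was small, at 4.46 and 3.02 FPKM (SD). Of 34 NRF2 and glutathione genes it alone was called. At an unadjusted p under 0.05, 6 were lower (3 without chow replicate 5) and 2 higher, where 5.36% and 4.21% of all genes were. Ces1g, a carboxylesterase that hydrolyses lipid esters, fell from 23.8, 8.997 and 10.1 to 3.09, 4.17 and 1.83 FPKM (-1.99 ± 0.42 SE, adjusted p = 0.0258; up to 0.202 without chow replicate 1 or 5 or high-fat replicate 1 or 5). These enzymes, and Mt1 below, belong to families of close copies, and how reads shared between copies were assigned is not given in the sources used here.

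S100g, the cytosolic calcium buffer of the distal tubule and a vitamin D target, was among the most abundant transcripts to fall. It had 3246, 3973 and 2704 FPKM in chow and 1534, 1613 and 1628 under high fat. All high-fat kidneys were below all chow kidneys, and their own spread was narrow. The means were 3308 ± 637 and 1591 ± 50.3 FPKM (SD, n = 3 each), a log2 change of -1.04 ± 0.17 (SE, adjusted p = 0.00304). Of 14 vitamin D and calcium genes it was the only one called. Cyp27b1, the renal enzyme that activates vitamin D, had 1.25, 1.72 and 4.68 FPKM against 0.70, 0.878 and 0.429 (-1.24, adjusted p = 0.21), with groups that did not overlap. Pvalb, the calcium buffer parvalbumin of the early distal convoluted tubule, rose from 32.4, 41.3 and 33.5 to 49.97, 58.4 and 60.3 FPKM (0.65 ± 0.13 SE, adjusted p = 0.0176; up to 0.133 without chow replicate 1 or 5 or high-fat replicate 2 or 5). The 6 distal convoluted tubule markers, Pvalb among them, had a median of -0.05 and summed to 322.6 to 332.9 FPKM in chow and 306 to 310 under high fat.

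Aqp4, a water channel in the basolateral membrane of tubule cells, had the greatest rise of the 37 on the log2 scale but an uneven one. It had 0.454, 0.359 and 0.694 FPKM in chow and 12.2, 1.62 and 4.81 under high fat (2.40 ± 0.50 SE, adjusted p = 0.0225). The high-fat libraries differed among themselves, and the call was kept only when high-fat replicate 2 was the library left out (adjusted p up to 0.301 otherwise, log2 change 1.76 to 3.05). It was the only call among 40 transporters of the loop, distal tubule and collecting duct, whose median was 0.02 (-0.03 without high-fat replicate 1). In that list 5 were lower at an unadjusted p under 0.05 (2 without chow replicate 5, and 3 without high-fat replicate 2 or 5), where 5.36% of all genes were. Among the 5 were Bsnd, Scnn1b, Scnn1g and Wnk4. Bsnd, which encodes barttin, had 22.1, 25.02 and 22.95 FPKM in chow and 19.4, 19.7 and 18.9 under high fat (-0.26, adjusted p = 0.166). The 7 intercalated cell markers, genes of the acid and base secreting cells, all had a negative change with a median of -0.12, and their sums of 151 to 165 FPKM in chow and 132 to 142 under high fat did not overlap; none passed the test, and up to 2 were positive in the other settings tried.

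In the proximal tubule, 25 apical and basolateral transporters gave no call and a median of 0.07. At an unadjusted p under 0.05, 6 were higher and 3 lower, where 4.21% and 5.36% of all genes were. The median was -0.03 without chow replicate 5, and 3 were higher without high-fat replicate 1. Slc13a2, the apical citrate transporter, had 20.1, 28.6 and 32.0 FPKM in chow and 50.7, 40.0 and 37.9 under high fat (0.68, adjusted p = 0.117). Slc7a7, a basolateral carrier of cationic amino acids, stood the other way at 86.0, 93.5 and 75.0 against 45.6, 65.8 and 45.9 FPKM (-0.70, adjusted p = 0.118). For both genes the groups did not overlap.

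Mt1, a small protein that binds zinc and copper, fell from 283, 384 and 341 to 172, 201 and 167 FPKM (-0.89 ± 0.19 SE, adjusted p = 0.0225; up to 0.152 without chow replicate 4 or 5 or high-fat replicate 1 or 5). Its neighbour and copy Mt2 had 124, 198 and 108 FPKM against 72.9, 88.9 and 66.3 (-0.87, adjusted p = 0.123). Egln3, a prolyl hydroxylase that marks the hypoxia-inducible factors for decay and is itself induced by them, rose from 2.39, 3.61 and 2.63 to 8.24, 6.32 and 6.31 FPKM (1.15 ± 0.18 SE, adjusted p = 0.00201). Its groups were apart by more than the spread of either. Of 16 measured hypoxia genes, 13 had a positive change with a median of 0.16, and Egln3 alone passed.

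Several of the genes with the smallest p-values are poorly known. 9030619P08Rik, an unnamed gene model on chromosome 15 annotated as a transcribed unprocessed pseudogene, had the smallest. Its 29.8, 32.4 and 33.6 FPKM in chow fell to 7.16, 6.23 and 6.54 under high fat (-2.18 ± 0.20 SE, adjusted p = 8.28e-08). How reads shared between it and related genes were assigned is not given in the sources used here. Gm15441, a gene model that lies opposite the thioredoxin inhibitor Txnip on chromosome 3, fell from 2.77, 7.21 and 6.78 to 0.874, 0.973 and 0.821 FPKM (-2.03 ± 0.29 SE, adjusted p = 0.000782). The pair share 606 exon bases. Txnip itself had 66.2, 88.2 and 62.2 FPKM in chow and 113, 79.4 and 77.5 under high fat (0.31, adjusted p = 0.569). Whether reads were counted by strand is not given in the sources used here, and without strand, reads in the shared bases cannot be told apart. Cela1, an elastase, fell from 138, 155 and 135 to 81.9, 85.6 and 80.5 FPKM (-0.78, adjusted p = 0.00474), and Bex4, a small brain-expressed X-linked gene, from 13.6, 18.5 and 14.6 to 7.97, 8.08 and 7.76 FPKM (-0.92, adjusted p = 0.00405). Both were called in every leave-out fit.

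The remaining calls were smaller or less steady. Khdrbs3, an RNA-binding splicing regulator, rose from 10.3, 10.7 and 10.2 to 18.1, 14.4 and 16.4 FPKM (0.62, adjusted p = 0.0258; up to 0.245 without any library but high-fat replicate 2). Col5a2, a chain of type V collagen, fell from 2.92, 2.82 and 2.71 to 1.49, 1.59 and 1.15 FPKM (-0.80, adjusted p = 0.0192; up to 0.154, called only without high-fat replicate 2 among the leave-out fits), whereas none of the 25 collagens and matrix genes in the list, where it was not a member, passed. The complement component C2 fell from 20.9, 20.4 and 26.3 to 11.7, 16.2 and 11.3 FPKM (-0.77, adjusted p = 0.00811; up to 0.1004 without chow replicate 5 or high-fat replicate 1 or 5), and it shares 1656 exon bases with the gene model Gm20547 on the same strand. Nme4, a mitochondrial nucleoside diphosphate kinase, had a log2 change of -0.85 (adjusted p = 0.0132; up to 0.135 without chow replicate 4 or high-fat replicate 5), and Eva1b, a membrane protein, one of -0.89 (adjusted p = 0.00584; up to 0.0624 without chow replicate 5 or high-fat replicate 1). Tstd1, a sulfurtransferase-like gene, fell by 0.77 on the log2 scale (adjusted p = 0.00811; up to 0.0972 without chow replicate 1 or 5 or high-fat replicate 1 or 5) and Selm, a selenoprotein of the endoplasmic reticulum, by 0.76 (adjusted p = 0.0225; up to 0.23, kept only without high-fat replicate 2). Gcat, which cleaves a product of threonine to glycine, and the RNA-binding protein Dazap1 each fell by 0.35 (adjusted p = 0.0307 for both), and were kept only without high-fat replicate 2 and chow replicate 1 respectively (up to 0.301 and 0.23). The others that fell were Wfdc16, B830017H08Rik, Spns3, Zfp579 and Ankrd16, between -1.38 and -0.64. Of these, B830017H08Rik was lost without chow replicate 4 or 5 or high-fat replicate 1 (up to 0.0837), Spns3 without chow replicate 5 or any high-fat replicate (up to 0.213), and Ankrd16 without any library but high-fat replicate 1 (up to 0.213).

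**Figure D3:**
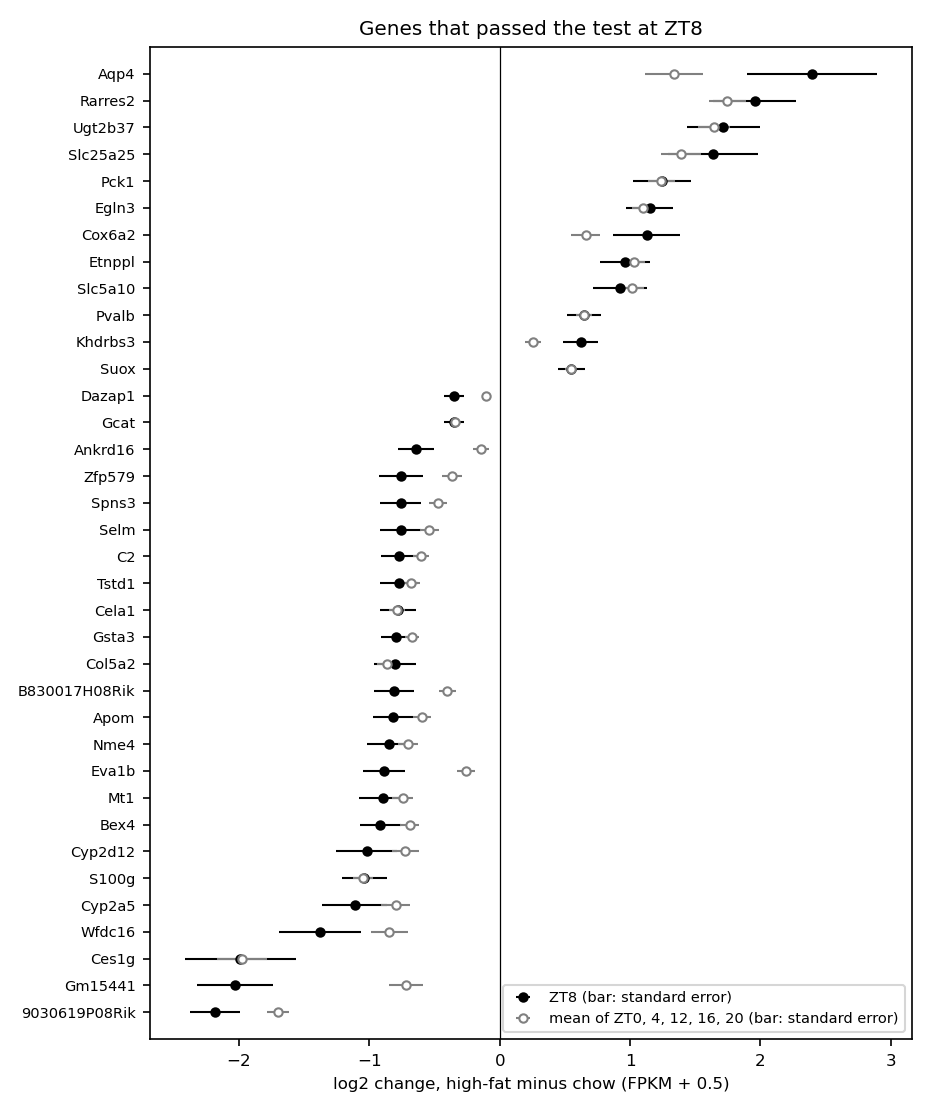
Genes that passed the test at ZT8 (36 of the 37), ordered by log2 change (high-fat minus chow). Filled points are ZT8 and open points the mean of ZT0, 4, 12, 16 and 20, with standard errors as bars; most open points lie on the same side of 0 and near the filled ones, while those of Gm15441 (-0.72), Eva1b (-0.26) and Ankrd16 (-0.14) lie nearer 0 than their ZT8 values.

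The diet differences called at ZT8 were also seen at the other times. The mean of the 5 other diet differences uses none of the ZT8 libraries, although the estimate of spread is shared. In it 1443 genes were called (12.9%), 428 higher (3.84%) and 1015 lower (9.11%), with 15 libraries per diet in place of 3. Of the 37 genes, 36 were called there with the same sign, all but Ankrd16 (-0.14, adjusted p = 0.131). The ZT8 change was the greater in size in 30 of the 37, as for Aqp4 (2.40 against 1.34), Khdrbs3 (0.62 against 0.25) and Dazap1 (-0.35 against -0.11). The 37 were chosen by their ZT8 test, which favours greater ZT8 values, so this count does not show a stronger effect at ZT8. In 35 the sign was the same at each of the 5 times; the exceptions were Eva1b, at 0.02 for ZT16, and Wfdc16, at 0.31 for ZT0. For others the sizes were close: Pck1, S100g and Ces1g had changes of 1.24, -1.05 and -1.98 at the other times, against 1.25, -1.04 and -1.99 at ZT8. Adrenal transcripts were high in 4 chow libraries of the other times and in no high-fat library. Without those 4, the median at the other times stayed at -0.42 for sterol synthesis. For the vitamin D and calcium genes it went from -0.24 to -0.42. The part of adrenal RNA in the calls at the other times was not tested.

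A test of the difference itself, the ZT8 diet change minus the mean of the 5 others, called 0 of 11144 genes (0%) in limma, with a smallest adjusted p of 0.991. Without adjustment, 263 genes (2.36%) fell under 0.05, of which 182 (1.63%) were more positive at ZT8 and 81 (0.727%) more negative. Leaving unnamed gene models aside, the smallest p-values among genes with a more positive change were those of Insig1, which holds the sterol sensor in the endoplasmic reticulum, of the matrix protein Egfl6 and of the histone methyltransferase Setd8. On the negative side they were Eva1b, the transcription factor Snai1 and Ankrd16. None of the 6 passed. Gm15441 had a difference of -1.31 ± 0.32 (SE, unadjusted p = 0.000317): its chow mean went from 0.868 FPKM at ZT0 to 5.58 at ZT8 and 1.64 at ZT16, while the high-fat means stayed between 0.644 and 1.37. It was the highest in chow at ZT8, the time of this comparison.

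Of the 55 gene lists, sterol synthesis had the most members at an unadjusted p under 0.05 in that comparison. These enzymes of the cholesterol pathway, with Insig1, are switched on together by SREBP2 when cell cholesterol is low. At ZT8 the 25 measured members had a median change of -0.01 and 12 were positive, whereas the median at the other times was -0.42. By time, the median was -0.46 at ZT0, -0.28 at ZT4, -0.18 at ZT12, -0.41 at ZT16 and -0.36 at ZT20. In 11 of the 25 the ZT8 change was more positive than the mean of the others at an unadjusted p under 0.05, and in 0 more negative, where 1.63% and 0.727% of all genes were; none passed adjustment. This number was 6 without high-fat replicate 1, 7 without chow replicate 1 or 4 and up to 11 without another ZT8 library. It was 6 with the median ratio rescaling, 8 with the GC trend removed and 7 against ZT12, 16 and 20 alone.

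Insig1 had 9.70, 7.37 and 9.18 FPKM in chow at ZT8 and 12.5, 11.5 and 12.3 under high fat, all above chow (0.45 ± 0.21 SE, adjusted p = 0.498). At the other times its change was -0.53, and the difference was 0.98 ± 0.23 (SE, unadjusted p = 0.00024). Its chow mean was lowest at ZT8, at 8.75 FPKM, and highest at ZT0, at 16.5, whereas the high-fat means were between 7.79 and 12.1. When 4 libraries of other times with adrenal transcripts, all of them chow, were left out, the Insig1 difference was 1.02 ± 0.18 (SE). That fit kept only replicate 4 of the chow libraries at ZT4, so no call is taken from it. Msmo1, the sterol methyl oxidase, likewise had a chow mean of 26.7 FPKM at ZT0 and 9.61 at ZT8 and high-fat means of 12.4 and 10.2 (difference 0.65 ± 0.21 SE, unadjusted p = 0.00372). For Msmo1 the diets were close at ZT8, where the chow level was low. Cyp51, the lanosterol demethylase, was higher under high fat at ZT8, at 54.4, 32.0 and 44.5 against 22.1, 24.4 and 20.0 FPKM (0.93 ± 0.23 SE, adjusted p = 0.0944).

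The 24 fatty acid synthesis genes had a median of -0.13 at ZT8 and -0.25 at the other times, an order that turned without chow replicate 1 (-0.36 at ZT8) or high-fat replicate 5 (-0.29). In 6 of them (Scd2, Srebf1, Acaca, Fasn, Acacb and Elovl5) the ZT8 change was more positive at an unadjusted p under 0.05, and in 0 more negative. Over all genes these shares were 1.63% and 0.727%. Fasn, the fatty acid synthase, had 6.199, 20.5 and 11.4 FPKM in chow and 6.17, 5.68 and 12.0 under high fat (-0.57, adjusted p = 0.701; -1.72 at the other times). Fasn is abundant in fat tissue. The 18 adipocyte markers, 5 of them positive at ZT8, also had a less negative median at ZT8 (-0.66) than at the others (-1.32). The part of fat tissue RNA in the fatty acid list was not tested. With an adipocyte score as covariate the number was again 6 for the fatty acid list and 12 for the sterol list, and the ZT8 median of the fatty acid list was 0.07. That median was also positive, at 0.01, without chow replicate 5. The number fell to 2 without high-fat replicate 5 and against ZT12, 16 and 20 alone, to 3 without chow replicate 1 and to 4 without high-fat replicate 1. Fads1, a desaturase, was lower under high fat at both, at 17.0, 21.1 and 17.9 against 13.1, 12.3 and 12.0 FPKM at ZT8 (-0.56, adjusted p = 0.17).

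**Figure D4:**
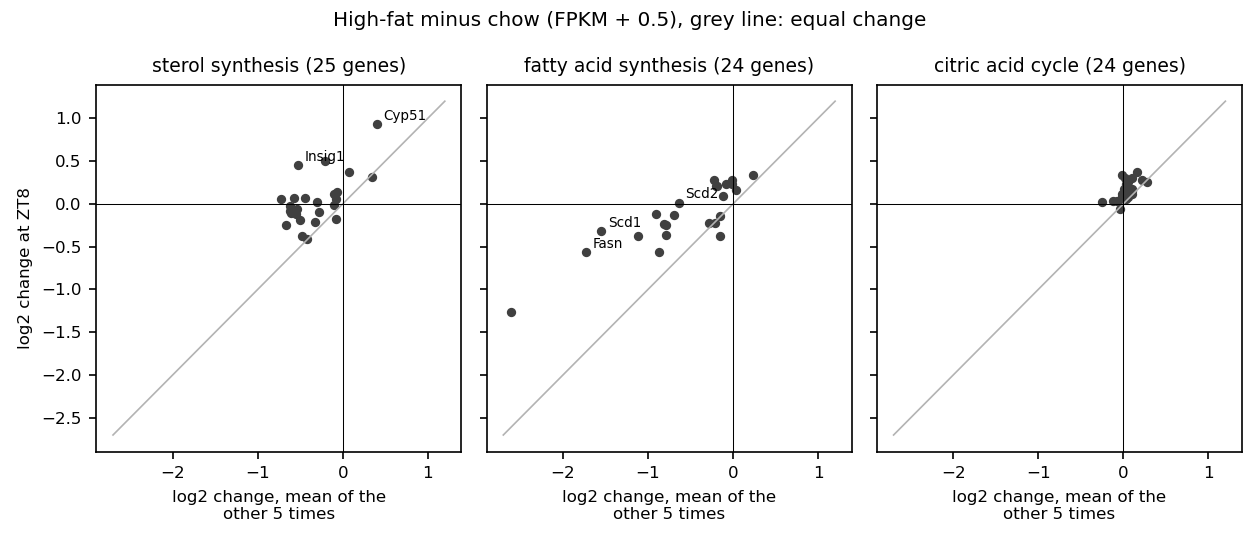
Members of 3 gene lists, each point a gene, with the mean log2 change of the other 5 times on the horizontal axis and the ZT8 change on the vertical axis (high-fat minus chow). The grey line marks equal change; most sterol and fatty acid synthesis genes lie above it, whereas the citric acid cycle genes cluster near 0 with 23 of 24 above 0 at ZT8.

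No clock gene passed the test of diet at ZT8. Of 16 measured core clock genes, none was called and none had an unadjusted p under 0.05, and their median change was -0.02, which turned to 0.07 without chow replicate 5 and 0.02 without high-fat replicate 5. Of 15 clock output genes none was called, and the median was 0.29. At an unadjusted p under 0.05, 2 were higher (Pdk4 and Hlf), where 4.21% of all genes were. The number of 2 became 0 without chow replicate 1 and 4 without chow replicate 5. The output median was 0.15 without high-fat replicate 1 and -0.07 over the 10 of them that averaged 5 FPKM or more. An interval shows what could have been missed. The 95% interval of the log2 change was -1.03 to 0.19 for Per1, -0.79 to 0.40 for Per2 and -0.77 to 0.24 for Dbp. It was -0.34 to 0.37 for Arntl, whose means of 0.329 and 0.340 FPKM lie under the added 0.5. That addition shrinks log2 changes at such levels, so the Arntl interval does not bound its fold change as closely. ZT8 is near the peak of Dbp and Ciart in both diets. Dbp, a transcription factor that acts on D-boxes, had 57.4, 58.0 and 47.8 FPKM in chow and 37.8, 54.5 and 44.3 under high fat. Its means were 54.4 and 45.5 at ZT8, 13.6 and 25.9 at ZT4, and 48.5 and 29.3 at ZT12, so that the order of the diets turned between ZT4 and ZT8.

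Ciart, a repressor of the CLOCK and BMAL1 pair, had 11.5, 10.4 and 9.33 FPKM in chow and 6.22, 11.9 and 7.56 under high fat at ZT8 (-0.31 ± 0.25 SE, adjusted p = 0.708). Its chow and high-fat means were 1.18 and 3.70 FPKM at ZT4 and 10.4 and 6.82 at ZT12. The 250 bases before the start of Ciart (RefSeq, GRCm38.p6, minus strand, chr3:95882229-95882478) are shown as an example of a clock-driven promoter that is near its peak at this time. Capitals mark 3 E-boxes (CACGTG, searched on both strands), which begin 116, 58 and 44 bases before the start.
Ciart: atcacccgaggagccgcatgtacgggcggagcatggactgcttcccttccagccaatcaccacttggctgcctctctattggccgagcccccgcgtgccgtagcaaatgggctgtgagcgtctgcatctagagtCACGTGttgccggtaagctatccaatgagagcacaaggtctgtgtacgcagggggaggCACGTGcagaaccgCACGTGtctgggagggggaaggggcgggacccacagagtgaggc
An E-box was found in 6.02% of the 32851 windows, and 25 of the 31 clock genes had a window.

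In 3 of the 31 clock genes the groups did not overlap (Bhlhe40, Hlf and Klf15), where 16.0% of all genes did not. Bhlhe40, a repressor that binds E-boxes, had 19.6, 19.4 and 18.0 FPKM in chow and 29.4, 24.6 and 20.4 under high fat (0.36, adjusted p = 0.656). Per1, an early repressor of the loop, had 6.64, 6.28 and 12.8 FPKM in chow and 5.41, 8.30 and 4.71 under high fat. Nr1d1, the heme-binding repressor of Arntl, had 35.9, 44.6 and 20.4 against 31.6, 25.3 and 30.9 FPKM. In both genes the chow replicates spread more widely than the high-fat ones. Arntl was low in both diets, with means of 0.329 and 0.340 FPKM, as was its relative Npas2, with 0.197 and 0.198. From ZT4 to ZT12 in chow Per1 went up by 1.56 and Arntl down, by -1.75, on the log2 scale. The diet change at ZT8 had the same sign as this chow change in 6 of 16 core clock genes and 5 of 15 output genes.

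**Figure D5:**
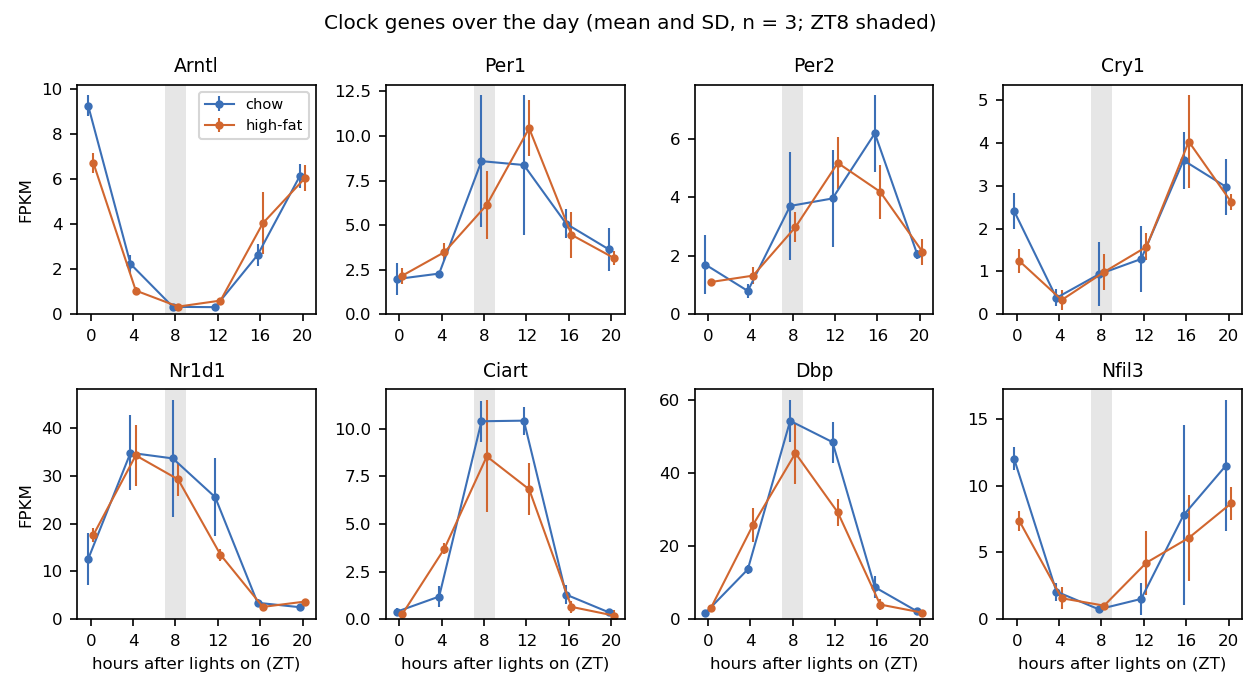
Mean FPKM of 8 clock genes by hours after lights on in chow and high-fat kidneys, with the SD of 3 libraries as bars and ZT8 shaded; points of the diets are drawn side by side. At ZT8 the chow and high-fat means are close for Arntl (0.329 and 0.340) and less so for Dbp (54.4 and 45.5) and Per1 (8.59 and 6.14). At ZT4 and ZT12 those of Dbp and Ciart are further apart than at ZT8.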

How the data were processed

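Polyadenylated RNA of mouse kidneys was sequenced from TruSeq libraries, per the labels' protocols. The deposited values are FPKM, 1 table per diet; the submitters' processing notes list the build mm10 and the tools CASAVA 1.8.2, Cuffnorm and Bowtie. Whether 1 run made both tables is not given in the sources used here, so that a difference between runs cannot be told apart from diet. Of 24883 rows, 817 rows of 280 repeated symbols were left out, and 0 value columns were unused. Count models were not applied to FPKM. Total reads are unknown; relative depth came from 1234 rarely detected genes, with 91.4% of low values whole multiples of the gene's smallest step within 0.1.

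Values were tested as log2(FPKM + 0.5), which understates changes of low genes, for genes whose FPKM averaged at least 1 over 36 libraries. The model was limma 3.58.1 (R 4.3.3, mean-variance trend) with 12 group means, 24 residual degrees of freedom and Benjamini-Hochberg adjustment at 0.05. It was tested on simulated data. The contrasts were high-fat minus chow at ZT8, its mean at the other 5 times, and the difference of these. Members, lists and tests were chosen with earlier results of these data known. Lists are described by counts and medians. Named genes were all core clock genes, the 12 highest and 12 lowest called changes at a mean FPKM of at least 5 without overlap, up to 4 called members per list and 3 genes per direction against the other times; unnamed gene models and other genes outside this rule were named after their values were seen. A few genes are not reported here; the counts and tests include them. Coordinates are from GENCODE M21, and promoters from RefSeq. Alternatives covered pseudocounts, filters, rescalings, the prior, a replicate block, an adipocyte covariate, GC correction and leaving out libraries.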

Additional observations from a re-analysis of the deposited data

How the results depend on the processing

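Against 37 genes called at ZT8 (12 higher, 25 lower), removing the GC trend gave 66 (35 higher, 31 lower), leaving out the 4 chow libraries of other times with adrenal transcripts 72 (31 higher, 41 lower), and using only the 6 ZT8 libraries 7 (4 higher, 3 lower). The shares of lower calls were 67.6%, 47.0%, 56.9% and 42.9%. Leaving out 1 ZT8 library gave 13 to 31 calls, 5 to 7 higher and 8 to 24 lower; 13 to 25 of the 37 genes were called in each. Against the other times, 0 genes became 2 without the adrenal libraries: Insig1, and Mir6244 (adjusted p = 8.39e-11), which is listed at 0 in all 6 ZT8 libraries.

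Chow and high-fat share the replicate numbers 1 and 5 at ZT8, and the deviations of these pairs correlated at 0.26 and 0.188, too few pairs to establish pairing. With a replicate block 25 genes were called, 7 higher and 18 lower, all among the 37, and 35 with the GC correction added, which was chosen after seeing the data (14 higher, 21 lower, 24 among the 37). No gene that passed the test changed sign under any setting tried. The shallow chow replicate 4, at a relative depth of 0.422, limits the precision of low genes.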

Other observations

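Chaperones of the endoplasmic reticulum, which fold secreted and membrane proteins, gave no call at ZT8, but 19 of 20 had a positive change with a median of 0.16 (other times, 0.02). By time, the list median was 0.16 at ZT0, -0.01 at ZT4, 0.20 at ZT12, -0.02 at ZT16 and -0.11 at ZT20. Of the 20, 5 were higher at an unadjusted p under 0.05, where 4.21% of all genes were. The 5 became 2 without chow replicate 5 or high-fat replicate 1 and 3 without chow replicate 4 or high-fat replicate 5. Pdia6, a disulfide isomerase, had 60.6, 54.7 and 52.4 FPKM in chow and 75.1, 67.8 and 70.3 under high fat (log2 change 0.35, limma adjusted p = 0.231), and Hsp90b1 had 102, 96.7 and 92.4 against 118, 114 and 122 FPKM (0.28, adjusted p = 0.397). The immune gene lists gave no call either, and the complement component C2, called lower above, was in none of them. The 23 interferon response genes had a median of 0.19, with 19 positive (0.09 and 15 without high-fat replicate 1, 0.37 and 21 without chow replicate 5). Of the 12 chemokine and inflammation genes, 4 were higher at an unadjusted p under 0.05 (1 without high-fat replicate 1, and 2 without chow replicate 1 or 4), where 4.21% of all genes were. Among the 4 was Cxcl10, at 2.06, 2.64 and 5.45 against 7.24, 6.11 and 4.17 FPKM (0.77, limma adjusted p = 0.327). Macrophage markers summed to 82.3 to 111.0 FPKM in chow and 95.4 to 114 under high fat (exact permutation p = 0.5). Of 55 cytosolic ribosomal protein genes, 9 had a positive change, with a median of -0.07 (22 and -0.02 without chow replicate 5).

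Adipocyte transcripts did not all go one way. Cfd, adipsin, had 75.1, 319 and 303 FPKM in chow and 1.68, 8.92 and 28.7 under high fat (-4.53 ± 1.23 SE, limma adjusted p = 0.138). Lep, leptin, had 0.165, 0.144 and 0.5001 FPKM against 2.00, 4.01 and 3.16 (2.20 ± 0.74 SE, adjusted p = 0.273). For both genes the groups did not overlap, and neither passed. Adipoq, adiponectin, had 10.03, 44.3 and 30.9 against 4.58, 14.7 and 22.1 FPKM (adjusted p = 0.789). Ucp1, the uncoupling protein of brown fat, was at 73.9 FPKM in high-fat replicate 5 and at 1.94 or less in the other 5 libraries.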
